A study of Mus musculus with 18 samples.

Results

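Binding of CTCF was compared between mouse embryonic stem cells that lack DNA methyltransferases and TET enzymes together (SKO), cells that lack the TET enzymes alone (TKO) and wild-type cells (WT). The regions described here carried a CTCF peak in TKO and in WT cells and none in SKO cells. They were chosen by joining rows of equal coordinates in each of the 3 peak lists, merging intervals that overlapped by at least 1 bp, and taking merged regions with TKO and WT intervals and no SKO interval. This gave 5603 regions, which is 7.18% of the 78072 merged regions and 9.77% of the 57366 regions with TKO and WT peaks.

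SKO cells carry knockouts of Dnmt1, Dnmt3a, Dnmt3b, Tet1, Tet2 and Tet3; TKO cells carry knockouts of Tet1, Tet2 and Tet3; WT cells carry neither. All were grown on irradiated feeder fibroblasts in medium with serum replacement and LIF, the cytokine that sustains these cells, and each genotype had 3 CTCF ChIP and 3 input samples. Whether replicates are separate clones or cultures is not in the labels, and the feeder cells can be another source of DNA in the samples. Each deposited peak list was made from the pooled replicates of 1 genotype, so there are no replicate values, no difference below carries a test, and all intervals are 95% Wilson intervals that cover counting error alone. Peak lists hold no expression, so the cell type could not be checked against its markers, and a peak beside a deleted gene does not check the genotype.

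CTCF is a zinc finger protein that binds a long DNA motif, stops cohesin on the chromosome and so marks the ends of many chromatin loops. DNA methyltransferases place a methyl group on cytosine in CpG pairs, and TET enzymes oxidise that group, a step towards its removal. Methylation of a CpG inside some CTCF motifs is known to weaken binding, as at the imprinted H19 locus. Cells that lack the methyltransferases have almost no DNA methylation, whereas cells that lack the TET enzymes alone keep their methyltransferases.

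The promoters among these regions are shown first, because they are the ones for which sequence was at hand. A promoter window spans 250 bases before and 50 after an annotated start site, in RefSeq's table for GRCm38.p6, and 128 windows of 121 genes held the strongest WT summit of one of the regions. An exact match to the CTCF core motif, searched on both strands over 14 letters, stood in 9 of the 128 windows (7.03%, 3.74 to 12.8), against 1.66% of all 32851 windows. The share was 8.96% of 67 windows with WT and SKO peaks and no TKO peak, and 5.06% of 158 with a WT peak alone. Of the 9 windows of the regions described here, the 5 whose smaller fold was highest are given below. Each is shown as the stretch of 74 bases around the motif, which is in capitals, written 5′ to 3′ on the strand of its gene.
Slain2, chr5:72914323-72914396, plus strand: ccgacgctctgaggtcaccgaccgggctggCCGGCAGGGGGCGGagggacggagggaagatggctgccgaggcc
Ep300, chr15:81586164-81586237, plus strand: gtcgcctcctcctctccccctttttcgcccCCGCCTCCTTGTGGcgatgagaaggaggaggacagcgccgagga
Ccsap, chr8:123858826-123858899, minus strand: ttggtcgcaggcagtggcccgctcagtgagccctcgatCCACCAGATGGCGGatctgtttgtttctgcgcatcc
Cst3, chr2:148875505-148875578, minus strand: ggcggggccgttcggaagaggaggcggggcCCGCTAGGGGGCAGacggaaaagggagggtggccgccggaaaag
Ly75, chr2:60383407-60383480, minus strand: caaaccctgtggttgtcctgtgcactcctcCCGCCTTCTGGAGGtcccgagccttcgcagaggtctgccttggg

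Each of these 5 motifs holds at least 1 CpG, and the one at Slain2, whose protein promotes microtubule growth, holds 2. Its motif lay 5 bp from the WT summit, and the region had a fold enrichment of 10.2 in TKO and 6.38 in WT. Fold enrichment is the authors' value for a peak, its fragment pileup over the local background, with 1 added to each. At Ep300, the gene of a histone acetyltransferase, the motif reads on the other strand and lay 28 bp from the summit, with folds of 6.95 in TKO and 6.18 in WT. At Ccsap, which encodes a protein of centrioles and spindles, it lay 3 bp away, with folds of 4.87 in TKO and 3.93 in WT. The motif of Cst3, the gene of the protease inhibitor cystatin C, lay 6 bp away, with folds of 3.78 in TKO and 4.12 in WT. That of Ly75, an endocytic receptor of dendritic cells, also reads on the other strand and lay 38 bp away, with folds of 5.65 in TKO and 3.5 in WT. The TKO fold was the higher of the pair at 4 of these 5 promoters and the lower one at Cst3.

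The 3 strongest promoter regions of the set had no motif match with up to 1 mismatch. Their 101 bases around the WT summit, moved inward where the window ends, are shown with every CpG in capitals.
Ttll4, chr1:74661651-74661751, plus strand: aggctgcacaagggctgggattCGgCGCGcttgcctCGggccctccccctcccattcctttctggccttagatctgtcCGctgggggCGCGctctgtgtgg
Rbm15b, chr9:106887225-106887325, minus strand: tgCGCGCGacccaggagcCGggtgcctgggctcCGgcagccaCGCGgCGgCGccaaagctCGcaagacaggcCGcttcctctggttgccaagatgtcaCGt
Dcun1d4, chr5:73490835-73490935, plus strand: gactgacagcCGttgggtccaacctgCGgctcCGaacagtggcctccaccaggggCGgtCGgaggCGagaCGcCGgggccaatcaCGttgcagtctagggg

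The region at Ttll4, a tubulin polyglutamylase gene, had folds of 13.3 in TKO and 15.7 in WT, and its shown stretch holds 7 CpG. The region at Rbm15b, whose protein helps place N6-methyladenosine on RNA, had folds of 11.4 in TKO and 12.4 in WT, and the stretch holds 12 CpG. The region at Dcun1d4, a gene of cullin neddylation, had folds of 11.1 in TKO and 8.41 in WT, and 9 CpG stand in the stretch. An absent match says no more than that these letters are not in the window.

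Promoters of these regions were rich in CpG, and so were those of the other classes. The median window held 21 CpG at 60.8% GC, against 21 CpG in promoters with WT and SKO peaks and no TKO peak, 18 in promoters with peaks in all 3 lists and 7 over all promoters. An exact motif was less frequent than the 19.9% of 1450 promoters with peaks in all 3 lists, but those peaks are stronger. When those promoters were weighted to the same WT peak strengths the share was 9.91%, within the interval of the 7.03%. With up to 1 mismatch the motif stood in 53 windows (41.4%, 33.2 to 50.1), against 35.8% with WT and SKO peaks and no TKO peak (the mirror class), 62.7% with all 3 peaks and 44.2% of those with all 3 after weighting. Of these 53 motifs 34 held a CpG (64.2%). The share was 79.2% of 24 in the mirror class, 66.1% in promoters with a WT peak alone, 74.5% in promoters with all 3 peaks and 59.3% over all promoters, none of them weighted for strength.

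The regions were weak peaks in both lists that chose them, and the values in this paragraph are a description of that choice. The TKO fold had a median of 5.40 (quartiles 4.39 and 6.62, highest 17.0) and the WT fold a median of 5.81 (4.58 and 7.38, highest 22.9). Regions with peaks in all 3 lists had medians of 11.2 in TKO and 12.7 in WT. The pileup at the summit, solved as a whole number of fragments from each peak's fold and p-value, had a median of 18 in TKO and 20 in WT, against 50 in TKO and 56 in WT for regions in all 3 lists. The median −log10 q, the authors' significance score, was 8.35 in TKO and 9.64 in WT, at the 15.4th percentile of the TKO list and the 21.5th percentile of the WT list. The merged regions were 311 bp wide at the median, against 445 bp for regions in all 3 lists.

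**Figure D1:**
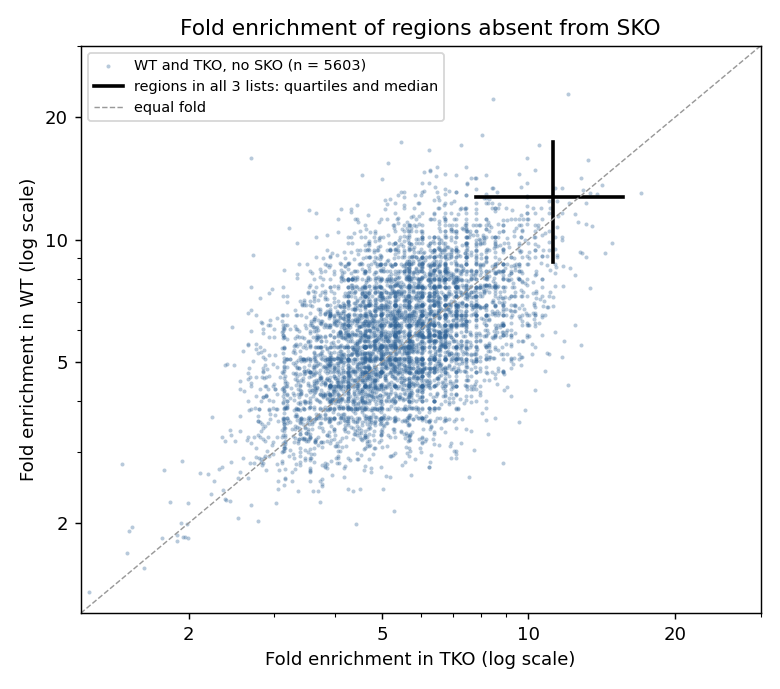
Fold enrichment in TKO (horizontal) and in WT (vertical) of the 5603 regions with TKO and WT peaks and no SKO peak, on log axes, 1 point a region; the black cross marks the median and quartiles of regions in all 3 lists. Most points lie below both medians of that class, and they spread on both sides of the line of equal fold.

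A TKO fold above the WT fold was found in 2338 regions (41.7%), against 37.4% of regions in all 3 lists. Across regions the folds in TKO and WT ranked together less closely (Spearman rho 0.47 over 5603 regions) than in regions of all 3 lists (0.75 over 51763), where the range of folds is wider; regions of 1 list share their libraries, so this is a description. Nearly all of the regions were simple peaks, with 1 summit in each list in 5494 (98.1%), against 95.3% of regions in all 3 lists. The TKO and WT summits lay within 50 bp of each other in 4831 (86.2%), against 97.1% of regions in all 3 lists.

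At a given WT strength, the TKO peaks of these regions were lower than those of regions which also had an SKO peak. With a WT −log10 q between 5 and 10 the median ratio of TKO to WT fold was 1.01 in 2140 of the regions and 1.14 in 2786 regions of all 3 lists. Between 10 and 15 it was 0.855 in 1293 and 1.01 in 3633, and between 15 and 25 it was 0.745 in 1066 and 0.913 in 7347. Between 25 and 40 it was 0.629 in 234 and 0.876 in 8979. Over all strengths the order turned, 0.932 against 0.896, since the regions sit among weak WT peaks, where the ratio is high in either class. Both TKO and WT values took part in choosing the regions, so these ratios are a description.

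A region with TKO and WT peaks lacked an SKO peak mostly where its peaks were weak. In the weakest of 10 equal bins of the TKO list 50.6% of the regions with both peaks lacked one, in bin 3 21.3%, in bin 5 2.95% and in the strongest 0.032%. By bins of the WT list the shares were 56.0%, 30.7%, 7.45% and 0.014% in the same bins. The lowest 3 bins of both lists held 3621 of the 5603 regions (64.6%). Above both list medians were 18 (0.321%), against 56.4% of regions in all 3 lists. This count was 96 when a region needed an SKO summit within 100 bp to count as having one, and 28 when peaks of all 3 lists had to reach a −log10 q of 5.

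**Figure D2:**
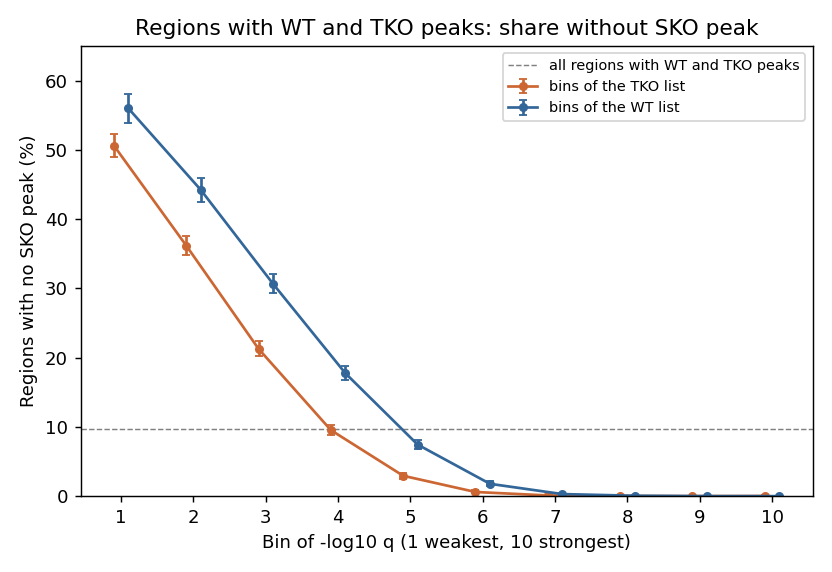
Share of regions with TKO and WT peaks that had no SKO peak (percent, 95% Wilson intervals), by bin of −log10 q in the TKO list and in the WT list, with the share over all such regions, 9.77%, as a dashed line. The share falls from the weakest to the strongest bin in both lists and lies under 3% from bin 6 on.

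By its peak values the SKO list was shallower, and that stands beside every count here. The lowest local background of its peaks, solved from the same peak values, was 0.752 of that in TKO and 0.779 of that in WT. By another measure, the median pileup ratio in regions of all 3 lists, SKO stood at 0.821 of TKO and 0.733 of WT. The 146 SKO peaks with a −log10 q under 1.5, the weakest the caller kept, had a median pileup of 8, a lowest one of 7 and a 90th percentile of 11. The WT pileups of the regions, multiplied by the background ratio of SKO to WT, had a median of 15.6 (quartiles 12.5 and 19.5), and 5431 regions (96.9%, 96.4 to 97.4) reached 8. At 2 times that pileup were 2596 (46.3%) and at 3 times 683 (12.2%). The scaled TKO pileups had a median of 13.5. In the mirror class, with WT pileups scaled to TKO, 3468 of 3524 regions (98.4%) reached 10, the median pileup of the weakest TKO peaks. WT and TKO peaks chose the regions, so these pileups are a description. An SKO pileup at places without a peak was not read here, so how far the SKO signal fell below these values was not measured, and the part of depth in the count was not tested.

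**Figure D3:**
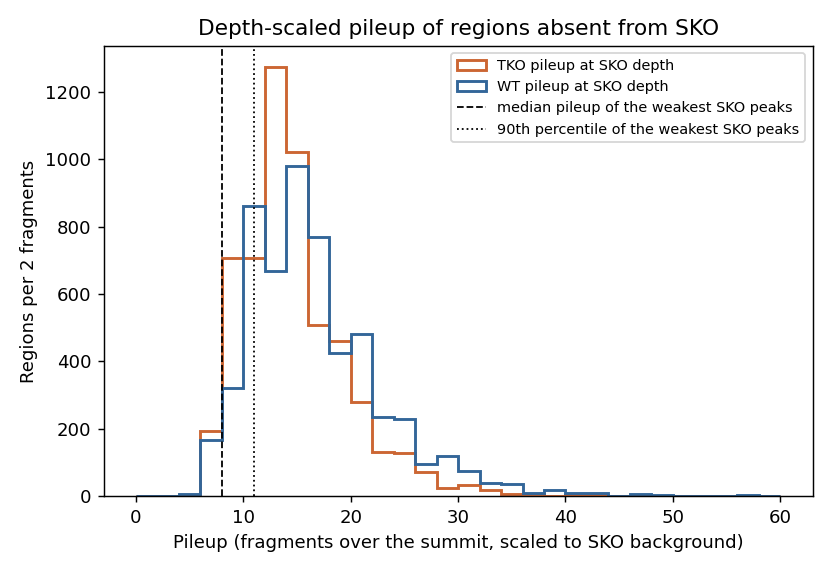
Number of regions by fragment pileup over the summit, in steps of 2 fragments, for TKO and for WT pileups multiplied by the ratio of SKO background to their own; values above 60 are not drawn. Dashed and dotted lines mark the median (8) and the 90th percentile (11) of the weakest SKO peaks, and most of the regions lie to the right of both.

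The mirror class, regions with WT and SKO peaks and no TKO peak, numbered 3524 of 55287 (6.37%). The median WT fold was 5.81 in the regions described here and 5.86 in the mirror class, and the median width 311 bp against 310 bp. Where the pileup was at least 30 in both lists, 279 of 37929 regions with TKO and WT peaks lacked an SKO peak (0.736%), and 52 of 33194 regions with WT and SKO peaks lacked a TKO peak (0.157%). At 50 or more these were 23 of 24815 (0.0927%) and 1 of 20390. A pileup of that size stands for different enrichment in lists of different depth.

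Regions at the edge of the rule had low folds on either side of it. An SKO interval lay within 100 bp of 2 of the chosen regions and within 500 bp of 169, whose median folds were 4.97 in TKO and 5.13 in WT. The other 5434 regions had medians of 5.40 in TKO and 5.81 in WT, and the median distance from all regions to the nearest SKO interval was 9.91 kb. Just outside the rule, the 26 regions of all 3 lists whose SKO peak had a −log10 q under 1.5 had median folds of 2.75 in SKO, 4.53 in TKO and 4.30 in WT.

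Position was not used to choose the regions. Of 5588 regions on named chromosomes 2822 (50.5%, 49.2 to 51.8) had their strongest WT summit inside a protein-coding gene, against 51.5% of the mirror class and 48.7% of regions in all 3 lists. After weighting to the same WT strengths, 51.3% of the class with all 3 peaks lay inside one, within that interval. Within 1 kb of a gene end lay 424 (7.59%, 6.92 to 8.31), against 7.53% of the mirror class, 7.31% of regions with a WT peak alone and 8.94% of regions in all 3 lists. Weighted to the same WT strengths, the last class had 11.1% there, above the interval of the regions described. In a promoter window were 115 of 5386 (2.14%, 1.78 to 2.56), against 1.69% of the mirror class and 2.68% of regions in all 3 lists after weighting. No protein-coding gene lay within 100 kb of 629 (11.3%, 10.5 to 12.1), against 13.3% of the mirror class and 11.1% of regions in all 3 lists after weighting. By these counts a smaller share of the regions than of the mirror class lay far from genes, near the share of regions in all 3 lists after weighting. At gene ends lay a smaller share than of regions of all 3 lists at like strength, near the share of the mirror class. After weighting, the share at gene ends was 7.58% in the mirror class and 6.09% in regions with a WT peak alone.

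The regions were spread over many genes. A protein-coding gene held the WT summit of each of the 2822, and 2303 genes took part, 1916 of them with 1 region. The genes with most were long. They were picked by that count, so their counts are a description, to be read beside the 9.77% over all regions with TKO and WT peaks. Cdh13, a cadherin held to the membrane by a lipid anchor, held 9 of its 39 regions with TKO and WT peaks, with folds from 3.11 to 12.9 in TKO and from 4.94 to 9.25 in WT. Dlgap1, a scaffold of the postsynaptic density, held 7 of 24. With 5 each there were Tnrc6c, a protein of microRNA silencing (of 12), the junction scaffold Magi1 (of 14), the nuclear receptor Rora (of 29), Camta1 (of 42) and the cGMP-dependent kinase Prkg1 (of 16). Tnrc6c, at 110 kb the shortest of these, had folds from 4.80 to 13.4 in TKO and from 5.02 to 9.63 in WT.

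Most of the regions stood alone along the chromosome. The region that followed was another of the class for 437 of 5599 (7.80%, 7.13 to 8.54), an interval that covers the class's 7.18% of all regions. In the mirror class this was 4.77% (4.11 to 5.52), with a share of 4.51%, and among regions with a WT peak alone 14.7% (14.1 to 15.5), with a share of 12.7%. On either side, 836 regions (14.9%) had another of the class. Single regions numbered 4767, runs of 2 numbered 367, of 3 numbered 27, of 4 numbered 4, and 1 run of 5 lay on an unplaced contig. One run of 4 covered Jak2, a kinase of cytokine receptors, that of LIF among them, and reached to the gene Insl6 on chr19:29272405-29327295 (54.9 kb). Its folds were 6.92, 4.55, 6.58 and 6.24 in TKO, and 9.31, 5.21, 7.02 and 6.32 in WT. One more lay at Tex36, a gene expressed in testis, and Edrf1 on chr7:133572056-133621093 (49.0 kb), with folds of 5.32, 4.68, 4.50 and 6.0 in TKO, and 5.08, 4.89, 5.74 and 7.98 in WT. Another lay inside Mcc on chr18:44666765-44718834 (52.1 kb), with folds of 7.10, 8.16, 5.06 and 5.79 in TKO, and 6.17, 3.84, 5.96 and 5.46 in WT. The last spanned 365 kb of chromosome 18 with no protein-coding gene within 100 kb. In the Jak2 run WT was the higher list in every region, and in the Mcc run TKO was the higher list in 3 of 4.

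The ratio of SKO to TKO pileup in regions of all 3 lists differed along the genome, and the share without an SKO peak was highest where it was lowest. Windows of 10 Mb were taken in 4 groups of 65 by that ratio. In the lowest group (0.567 to 0.783) 10.9% of regions with TKO and WT peaks lacked an SKO peak (10.4 to 11.4). The next groups had 9.55% (9.12 to 9.99) and 9.22% (8.75 to 9.72), and the highest group (0.889 to 1.05) had 8.78% (8.22 to 9.38). Intervals of the groups after the lowest overlap. The groups also differed in median WT −log10 q (40.3, 41.7, 40.3 and 35.7 in the same order). The windows of Jak2 (0.722), Tex36 (0.725), Cdh13 (0.753) and Tex15 (0.769) were in the lowest group, and the window of Mcc (0.897) was in the highest. Those of Tnrc6c (0.810), Dlgap1 (0.857) and Esrrb (0.867) were in the middle groups. Over the autosomes and X the share ran from 8.14% on chromosome 10 to 12.4% on chromosome 18, with 11.9% on chromosome 13 and 11.5% on chromosome 16. Over 19 autosomes and X the share and the ratio had a Spearman rho of −0.40, and for the mirror class the rho was 0.80. The X stood apart from the autosomes with a ratio of 0.923, where 10.2% of regions lacked an SKO peak and 9.84% of the mirror's regions lacked a TKO peak. Both measures come from the same 3 pooled lists, and the part of this ratio in the count of regions was not tested. On unplaced contigs 15 of 80 regions with TKO and WT peaks lacked an SKO peak (18.8%), 10 of them on 1 contig.

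**Figure D4:**
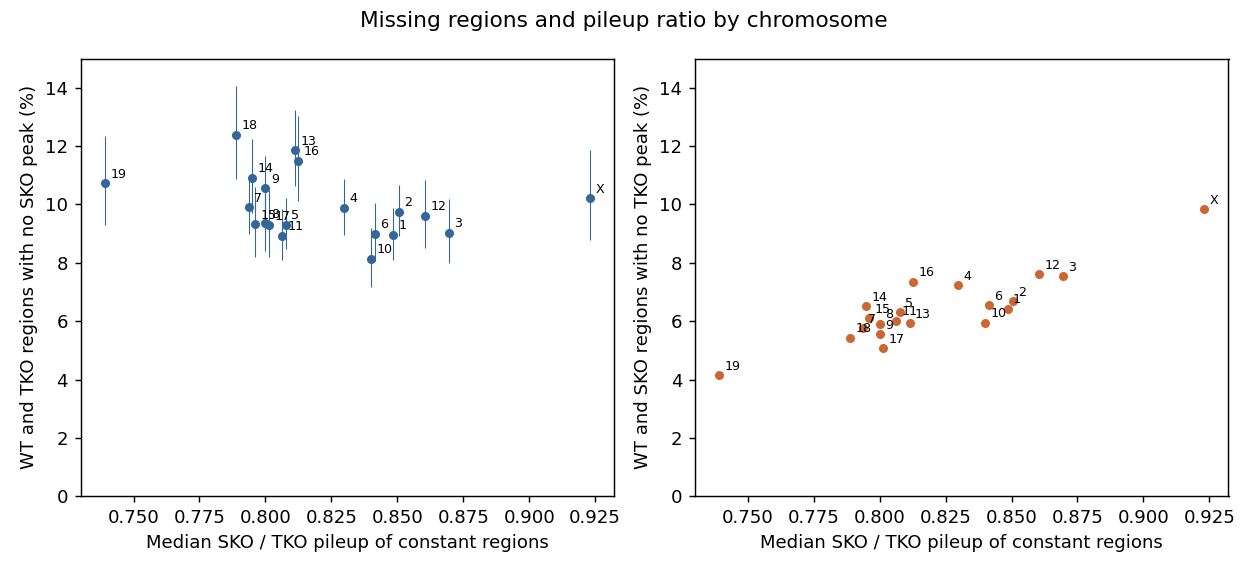
By chromosome (labels), the median ratio of SKO to TKO pileup in regions of all 3 lists (horizontal) against, at left, the percent of regions with TKO and WT peaks that had no SKO peak (95% Wilson intervals) and, at right, the percent of regions with WT and SKO peaks that had no TKO peak. Chromosome 19 has the lowest ratio (0.739) and X the highest (0.923); chromosome Y, with 25 regions, is not drawn.

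Gene lists were read by the regions with TKO and WT peaks that lay in a listed gene or within 10 kb of it. The share of these without an SKO peak was set beside the 9.77% over all, and beside the count obtained if each had the share of its WT strength bin. The lists ran from 0 of 18 for the X inactivation centre (Wilson upper limit 17.6%, and 16.7% by the 3 counts that a 0 allows) to 14 of 64 for germline genes. The interval lay above 9.77% for 3 of 23 lists (germline, LIF and STAT, pluripotency) and below it for 3 (early lineage, clustered protocadherins, potassium channels). With 50 kb either side the interval stayed above for the germline list alone, and those of the LIF and STAT and the pluripotency lists covered 9.77%. With gene bodies alone those of the early lineage and potassium channel lists covered it. Regions beside one gene are not independent, and lists differ in peak strength, so nothing is called particular to a list.

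**Figure D5:**
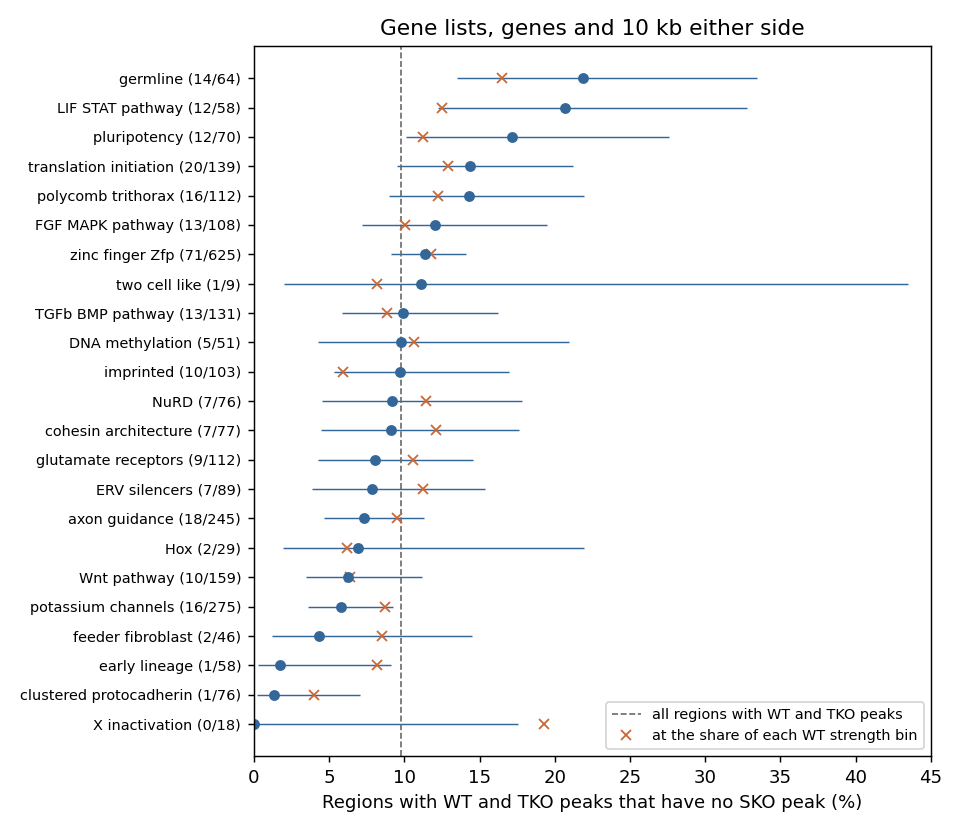
Percent of regions with TKO and WT peaks that had no SKO peak, for 23 gene lists with 10 kb either side (points, 95% Wilson intervals; counts in brackets). The dashed line is the share over all such regions (9.77%) and crosses give the share if each region had that of its WT strength bin.

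In the LIF and STAT signalling list 12 of 58 regions lacked an SKO peak (20.7%, 7.26 at bin shares). Beside the 3 at Jak2 there was 1 at Il6st, the gp130 receptor chain of LIF signalling, with folds of 5.75 in TKO and 6.30 in WT. The STAT inhibitor gene Pias1 had 3 of its 8 regions, with folds of 6.29, 7.61 and 3.56 in TKO, and 8.67, 5.18 and 5.89 in WT. Stat5b had 2 of 5, 1 of them shared with its neighbour Stat5a, and the feedback inhibitor gene Socs1 had 1 of 3 (5.25 in TKO, 4.61 in WT). The window of Pias1 was in the group of lowest SKO to TKO ratio (0.765), as that of Jak2 was.

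Pluripotency genes had 12 of 70 (17.1%, 7.85 at bin shares). Esrrb, an orphan nuclear receptor of the naive state, had 4 of 7, with folds of 3.52, 5.22, 3.51 and 2.93 in TKO, and 3.32, 6.39, 3.97 and 3.80 in WT. Klf2 had its only region in the class (4.56 in TKO, 3.98 in WT) and Klf5 1 of 2 (4.68 in TKO, 5.68 in WT); both encode Krüppel-like factors that sustain self-renewal. Zfp281, a repressor that acts in the exit from the naive state, had 1 of 2, the strongest here in TKO, with folds of 10.5 in TKO and 6.24 in WT. Zfp42 (Rex1), a marker of the naive state, had 1 of 2 with folds of 3.35 in TKO and 3.68 in WT, and the nuclear receptor gene Nr5a2 had 1 of 3 with folds of 5.95 in TKO and 3.76 in WT. Early lineage genes had 1 of 58 (1.72%, 4.73 at bin shares), at the endoderm factor Gata4 (4.61 in TKO, 5.44 in WT).

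Germline genes had 14 of 64 (21.9%, 10.6 at bin shares), and their peaks were weak, with a median WT −log10 q of 23.6 against 39.6 over all regions with TKO and WT peaks. Tex15, needed for silencing of transposons in male germ cells, had 4 of 5, with folds of 4.65, 7.30, 6.75 and 2.55 in TKO, and 7.42, 6.37, 5.92 and 4.29 in WT. The single regions of Dazl, an RNA-binding protein of germ cells, and of Sycp3, of the synaptonemal complex, were both in the class. The Dazl region had folds of 4.61 in TKO and 5.44 in WT, and the Sycp3 region 5.68 in TKO and 5.81 in WT. Mov10l1 and Tdrd1, of the piRNA pathway, and the germ cell factor Sohlh2 had 1 of 2 each.

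Genes of the methylation machinery had 5 of 51 (9.80%), near the share over all. Dnmt3b, one of the genes knocked out in SKO cells, had 2 of 4, with folds of 6.03 and 5.27 in TKO, and 5.92 and 9.77 in WT. Tet2 had 1 of 3 (5.67 in TKO, 8.24 in WT) and Tet1 1 of 7 (3.85 in TKO, 7.14 in WT); both are knocked out in SKO and TKO cells, and the labels do not give the deleted parts. The NuRD gene list had 7 of 76 (9.21%), with 2 of 10 at Gatad2a and 2 of 16 at Zmynd8. Genes of cohesin and chromosome architecture had 7 of 77 (9.09%), among them both regions of Smchd1, which acts in X inactivation and imprinting, with folds of 7.45 and 5.17 in TKO, and 5.08 and 5.04 in WT. Ctcfl, the germline paralogue of CTCF, had 1 of 6 with folds of 7.10 in TKO and 7.62 in WT.

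Imprinted genes had 10 of 103 (9.71%), where 6.10 would be had at bin shares. The region upstream of H19, chr7:142580068-142580955, had a fold of 2.69 in TKO and 15.8 in WT, and a pileup of 11 fragments in TKO against 49 in WT. Its TKO −log10 q was 1.55, against 45.9 in WT, so this region met the rule through a TKO peak near the limit. Snrpn, of the Prader-Willi cluster, had 2 of 7, with folds of 4.06 and 4.70 in TKO, and 3.53 and 5.04 in WT. Gnas, which encodes a G protein subunit, had 1 of 4 (5.65 in TKO, 10.5 in WT), and Rtl1, the retrotransposon-derived gene of the Dlk1 cluster, 1 of 3 (6.23 in TKO, 5.61 in WT).

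Polycomb and trithorax genes had 16 of 112 (14.3%, 13.7 at bin shares). Cbx7, the main polycomb chromobox protein of these cells, had 3 of 10, with folds of 10.3, 4.58 and 3.31 in TKO, and 6.99, 4.59 and 2.72 in WT. The histone demethylase genes Kdm6a and Kdm2b had 2 of 3 and 2 of 9, Jarid2 had 2 of 8, and Ezh2, the catalytic subunit of PRC2, its only region (5.65 in TKO, 4.31 in WT). Translation initiation genes had 20 of 139 (14.4%, 18.0 at bin shares), led by Eif2b3 and Eif4g3 with 2 each. Potassium channel genes had 16 of 275 (5.82%, 24.0 at bin shares), with 2 each at Kcnh5, Kcnd3 and Kcnma1. The clustered protocadherin genes had 1 of 76 (1.32%, 3.04 at bin shares), at Pcdhga1.

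Signalling and silencing lists lay nearer the share over all. The FGF and MAPK list had 13 of 108 (12.0%), with 2 of 9 at the inhibitor gene Spred2, 1 of which had folds of 10.5 in TKO and 9.65 in WT. The TGF-β and BMP list had 13 of 131 (9.92%), with 3 of 9 at the BMP receptor gene Bmpr1a. The Wnt list had 10 of 159 (6.29%), with 3 of 15 at Tcf7l1 and 2 of 6 at Lef1, both of which encode factors that bind β-catenin. Silencers of endogenous retroviruses had 7 of 89 (7.87%), zinc finger Zfp genes 71 of 625 (11.4%), axon guidance genes 18 of 245 (7.35%) and glutamate receptors 9 of 112 (8.04%). Hox genes had 2 of 29 (6.90%), feeder fibroblast markers 2 of 46 (4.35%), at Thy1 and Fn1, and the 2-cell-like list 1 of 9 (11.1%).

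The strongest of the regions, ranked by the smaller of their TKO and WT folds, were few: 40 had a fold of at least 10 in both lists (0.714%). The first lay inside Dupd1, a dual-specificity phosphatase gene of muscle, on chr14:21693015-21693360, with folds of 14.2 in TKO and 13.7 in WT and pileups of 40 fragments in TKO and 56 in WT. Next came the Ttll4 region shown above. The region of highest TKO fold lay 15.0 kb from Wdr19, a subunit of intraflagellar transport, on chr5:65184536-65184937, with folds of 17.0 in TKO and 13.0 in WT. The region of highest WT fold lay 16.5 kb from Ngdn on chr14:55040434-55040929, with folds of 12.1 in TKO and 22.9 in WT. These regions had no SKO interval within 5 kb, the nearest being 14.1 kb away at Dupd1, 5.96 kb at the Wdr19 region and 11.1 kb at the Ngdn region.

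Others of the first 20 lay inside genes of varied function. Mnat1, which assembles the CDK-activating kinase, had folds of 13.0 in TKO and 13.2 in WT. Fto, an RNA demethylase gene, had 11.5 in TKO and 11.4 in WT, and the nearest SKO interval was 56.7 kb away. Slc22a3, an organic cation transporter imprinted in placenta, had 11.7 in TKO and 11.6 in WT, with an SKO interval 0.571 kb away. Rps6ka4, a kinase of histone H3, had 11.4 in TKO and 13.4 in WT, and Hs3st3a1, a heparan sulfate sulfotransferase gene, 11 in TKO and 12.4 in WT. Near genes lay the regions 9.73 kb from the interleukin 9 receptor gene Il9r (13.8 in TKO, 13.0 in WT), 25.7 kb from Fcho1, of clathrin-coated pits (13.4 in TKO, 13.0 in WT), and 25.5 kb from Thoc2, of the mRNA export complex, on X (13.1 in TKO, 12.3 in WT). The remaining ones lay inside Gm40862, Sestd1 and 4833439L19Rik, near Rbm15b, Olfr1375 and the osteoclast receptor gene Oscar, and 86.4 kb from Zfp64, and 1 had no protein-coding gene within 100 kb. Their folds ran from 11 to 12.8 in TKO and from 11.1 to 14.2 in WT. An SKO interval lay 0.623 kb from the Gm40862 region and 0.581 kb from the Oscar region.

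Among the 18 regions above both medians of −log10 q, 2 did not look like single peaks. The one on chr12:3109885-3110098 had pileups of 6095 fragments in TKO and 4075 in WT at folds of 2.53 in TKO and 2.58 in WT. The one on chr9:3002021-3002370 had pileups of 3509 in TKO and 1055 in WT at folds of 1.94 in TKO and 1.85 in WT. Both lie near the start of their chromosome's assembled sequence, and their part in the count is 2 of 18.

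Regions whose folds differed most were read among the 4019 with a −log10 q of at least 5 in both lists, on autosomes and X. The highest ratios of TKO to WT fold were 2.75 at a region of chr14:19327309-19327692 with no protein-coding gene within 100 kb (12.1 in TKO, 4.39 in WT) and 2.42 inside Iws1, a transcription elongation factor gene (10.3 in TKO, 4.26 in WT). Next were 2.32 at a region 80.8 kb from Rb1cc1, an autophagy gene (12.8 in TKO, 5.51 in WT), 2.28 near the synaptic gene Rims3 (10.8 in TKO, 4.74 in WT) and 2.28 at a region of chromosome 17 with no gene to name. The lowest were 0.314 inside Ppp1r37, a phosphatase regulator gene (5.48 in TKO, 17.4 in WT), 0.315 inside the keratin gene Krt7 (4.55 in TKO, 14.4 in WT) and 0.334 near the collectin gene Colec11 (5.15 in TKO, 15.4 in WT). Next were 0.347 inside the acyltransferase gene Agpat3 (4.12 in TKO, 11.9 in WT) and 0.355 inside the polarity gene Pard3 (4.99 in TKO, 14.1 in WT). So regions without an SKO peak included some where TKO was more than 2 times WT and some where it was under 0.4 of WT.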

How the data were processed

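CTCF ChIP and input samples of SKO, TKO and WT cells, 3 replicates each, were pooled by genotype before peak calling, per the labels' file descriptions, and mm10, Bowtie2 2.3.4, SAMtools 1.9 and MACS2 2.1.2 are named in the submitters' processing notes. The deposited peak lists give a fold enrichment, a −log10 p-value and a −log10 q-value per peak as the authors' caller wrote them, with every −log10 q at 1.30 or above. The deposited peak score and the summit offset were read from the same rows, and only the offset was used. Total read depth was not given in the sources used here.

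Rows with equal coordinates were joined (SKO 61027 rows to 59372 intervals, TKO 64121 to 62238, WT 73125 to 71075) and the lists merged at 1 bp of overlap; a region took its strongest interval's values. Pileup was solved as a whole number of fragments from the fold and the −log10 p, and the background followed from pileup and fold. The −log10 p was returned within a relative error of 0.0001, which worked for all rows. The solver was tested on simulated data. Shares of other classes were weighted to the regions' bins of WT −log10 q. Gene positions came from RefSeq's GRCm38.p6 table, which has no strand or exons here, and promoter sequences from its 300-base windows, with none for chromosome 18; analyses used Python 3.11.15, pandas 2.3.3 and scipy 1.17.1.

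The regions, gene lists and comparisons were chosen with earlier results of these data known. Named were the 20 regions of highest smaller fold, the 5 highest and 5 lowest TKO to WT ratios (with the −log10 q limit of 5 in both), the 6 genes with most regions and those tied with the last, the 3 longest runs, and in each list the leading 3 genes by regions; other list genes, H19 and the 2 regions of very high pileup were picked after their values were seen. Some genes that this rule names are not reported here.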

Additional observations from a re-analysis of the deposited data

How the results depend on the processing

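The number of regions ran from 4032 (−log10 q of at least 5 in TKO and WT) to 5912 (SKO summit required within 100 bp of the WT or the TKO summit). Their share of regions with TKO and WT peaks was 10.3% with that summit rule, 9.51% with a −log10 q of at least 5 in all 3 lists, 7.41% with it in TKO and WT alone and 9.47% with no SKO peak within 500 bp. Above both medians were 96 regions with the summit rule and 28 with the limit in all 3 lists, which also gave median folds of 5.96 in TKO and 6.38 in WT. With genes of every biotype 12.2% lay within 1 kb of a gene end and 58.7% inside a gene; with 2.5 kb, 14.1% lay at gene ends. After depth scaling 99.6% reached the lowest pileup of the weakest SKO peaks and 81.3% the 90th percentile. Another of the class on either side within 50 kb was had by 12.4%. With up to 1 mismatch, an alternative chosen after seeing the data, 41.4% of promoters held the motif. With gene bodies alone 5 lists had intervals above the share over all (those of the 10 kb window, polycomb and trithorax, translation initiation) and 1 below (clustered protocadherins), and with 50 kb either side 1 (germline) and 4 (early lineage, clustered protocadherins, potassium channels, axon guidance). Between windows 5 of 23 lists crossed the share over all: Hox genes (14.3% with gene bodies, 12.8% with 50 kb) and silencers of endogenous retroviruses (12.2% with gene bodies) came to lie above it, and translation initiation genes (8.80% with 50 kb), methylation genes (8.05% with 50 kb) and the 2-cell-like list (0% with gene bodies) below it. No paired analysis was possible because the replicates of each genotype were pooled before peak calling, and for the same reason none could be left out.

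Depth limits what these lists can show, and its part in the count of regions was not tested. The regions are weak peaks, the SKO list has the lowest background, and a missing peak is not a measured absence of binding. Replicate spread is unknown, so no difference between genotypes was tested.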
